A study of Mus musculus with 9 samples.

Results

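The probe sets described here read transcripts of immunoglobulin variable genes and of the light chain constant genes in mouse spleen. They were chosen by annotation alone: the platform's gene symbol field had to contain Ighv, Igkv, Iglv, Igkc, Igkj, Iglc, Igk- or Igl-, and probe sets filed under the single symbol Ighm, Igha or Ighg3 were left out. The rule found 34 of the 45101 probe sets on the arrays. Of these, 22 carry kappa variable symbols with no constant gene, 3 carry kappa variable, joining and constant symbols together, 3 are filed under the lambda variable gene Iglv1, 1 under Iglc1 and Iglv1, and 5 under heavy chain variable symbols. A single symbol was given for 21 of them, covering 16 genes, and 13 carried several symbols and are named here by probe set alone. All values are log2 levels, so a step of 1 is a doubling, and every difference is lymphoma minus wild-type.

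Total RNA from frozen spleen was measured on 1-colour Affymetrix arrays, with 1 array per sample. One group holds 4 spleens of healthy wild-type mice, and the other holds 5 splenic lymphomas of mice carrying the Sca1-MALT1 transgene. No label states strain, age or treatment, or whether each sample came from a separate animal. The p-values therefore measure the spread between these samples, and the number of arrays limits the precision. The transgene's name refers to Sca1, a surface protein of blood stem and progenitor cells, and MALT1 is a protease and scaffold that links antigen receptors to NF-kB.

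An antibody is built of heavy and light chains, and each chain has a variable part that binds antigen and a constant part. A B cell joins a variable gene to further segments on the heavy chain locus, and another to a joining segment on the kappa or the lambda locus. It passes that choice to its daughter cells. A normal spleen holds many B-cell clones using many variable genes, whereas cells grown from one clone share the same joined genes. Plasma cells transcribe the joined genes at far higher rates than resting B cells do. Array probes for variable genes were designed on particular rearranged sequences, and relatives within a variable gene family are similar enough to bind the same probe.

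Names ending in _x_at mark probe sets with probes that may bind unrelated sequences, and _s_at and _a_at mark probes shared by several transcripts. Of the 34 probe sets, 15 end in one of these and 19 end in plain _at. Some share a design sequence: 10 form pairs on the same target and 3 others share one target, so they are not independent readings. A neighbour in sequence can contribute to any of these readings, and the genes named below are those of the annotation.

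The labelled tissue was borne out by its markers. The B-cell surface gene Ms4a1 stood at 13.84 ± 0.07 (SD, n = 4) in wild-type spleens and 13.62 ± 0.44 (SD, n = 5) in lymphomas, and the receptor chain gene Cd79b at 13.46 ± 0.13 and 13.11 ± 0.49. The arrays had medians between 6.88 and 6.97 and highest values between 15.32 and 15.42, the upper end of the scale. Marker scores, the mean log2 deviation of a gene list from its wild-type mean, set lymphomas 1 and 2 apart: their erythroid scores were 3.51 and 3.33, against -0.85 to 1.05 in the other lymphomas and -0.38 to 1.06 in wild-type spleens. In a bulk sample, fewer cells of a type and less RNA per cell cannot be told apart.

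The main feature of the immunoglobulin probe sets was a wide spread among the lymphomas beside a narrow one among the wild-type spleens. Their median SD was 0.12 among wild-type spleens, close to the 0.12 of all 45037 probe sets tested, and 0.44 among lymphomas, against 0.19 for all. The SD among lymphomas exceeded 0.5 for 15 of 34, or 44.1%, against 9.37% of all tested probe sets, and among wild-type spleens it exceeded 0.5 for 1 of 34 against 1.3% of all. The lymphoma SD was the larger for 30 of 34 (88.2%), where 75.2% of all probe sets showed the same. Without lymphomas 1 and 2 these shares were 73.5% (25 of 34) and 58.7%. These shares are descriptions and were not tested.

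The spread differed between levels of signal and was widest at middle levels. None of the 8 probe sets with a mean level under 5 had a lymphoma SD above 0.5, and their median SD was 0.16 against 0.13 for all probe sets at such levels. Between 5 and 8 it was above 0.5 for 8 of 13, or 61.5% against 9.35% of all probe sets there, and between 8 and 11 for 4 of 6, or 66.7% against 14% of all. The median SD at these levels was 0.72 and 1.06, against 0.18 and 0.26 for all. At 11 or more, 3 of 7 were above 0.5, against 9.29% of all, and the median SD was 0.27 against 0.22. Near the background RMA compresses differences, so the dim probe sets can show little.

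Between the groups, no immunoglobulin probe set was called. Limma called 0 of 34 at an adjusted p under 0.05, where 0.486% of all tested probe sets were called, and a test with unequal variances called 0 as well. At an unadjusted p under 0.05 limma had 8 of 34 (23.5%, against 13.9% of all), and the unequal-variance test had 7 (12.1% of all). All 8 were higher in lymphoma (5.15% of all probe sets were on that side) and 0 lower (8.76% of all). The limma count was 16 without lymphoma 2 (15.5% of all probe sets, in either direction) and 13 with array weights (17.3% of all). It was 5 without lymphoma 1 (13.1% of all) or without wild-type spleen 2, 3 or 4 (9.31%, 10% and 12.3% of all). Without lymphoma 5 it was 4 (12.5% of all). Only 2 of the 19 plain _at probe sets (13.8% of all plain _at) and 2 of the 21 with a single symbol (13.9% of all) had such a p. The median difference was 0.25, against -0.010 over all tested probe sets, and 27 of 34 differences were positive (79.4%, against 47.2% of all). The median difference was 0.14 without lymphoma 3 and 0.12 over the 19 plain _at probe sets, and also 0.12 over the 21 with a single symbol. Without lymphomas 3 and 5 it was 0.068, and the count at an unadjusted p under 0.05 was 4 of 34 (14.5% of all). The groups did not overlap for 2 of 34, or 5.88%, against 6.47% of all probe sets, a share near the background. In both the lymphomas were higher (2.39% of all), and in 0 of 34 lower (4.08% of all). Without lymphoma 4 there were 7 such probe sets, without wild-type spleen 1 there were 6, without lymphoma 2 there were 5, and without wild-type spleen 4 there were 3. Leaving out an array can only keep or raise such a count for any probe sets. The shares over all probe sets in these settings were not computed, so the rise says nothing particular to the immunoglobulin probe sets.

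Which lymphomas departed from wild-type was much the same over most of the probe sets. Lymphoma 1 lay above all 4 wild-type spleens on 23 of 34, lymphoma 3 on 27 and lymphoma 5 on 25, while over all tested probe sets these arrays did so on 27%, 21.3% and 28.7%. All 3 together lay above on 22 of 34 (64.7%), against 6.67% of all. Lymphoma 2 lay below all wild-type spleens on 18 of 34, against 34.1% of all, and above them on 6, against 26.5% of all. Lymphoma 4 departed least: it was within the wild-type range on 19 of 34 (55.9%, against 45.5% of all). It lay above that range on 10 (28% of all) and below it on 5 (26.6% of all). The grouping of lymphomas 1, 3 and 5 was noticed in these values, and it was not tested.

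Counted by extremes, lymphoma 5 gave the highest of the 9 values on 14 probe sets (12.2% of all) and lymphoma 3 on 9 (6.77% of all). Lymphoma 1 did so on 4 (15.9% of all). Wild-type spleens 1 to 4 were highest on 0, 0, 1 and 3, against 5.09%, 10.8%, 9.29% and 11.7% of all. Lymphoma 2 gave the lowest value on 17, against 18.1% of all tested probe sets, and lymphomas 3 and 5 on 0 (8.67% and 10.8% of all). An array stood at least 1 above or below every other on 3 of 34, or 8.82%, against 1.89% of all tested probe sets. These were lymphoma 3 (high on 1426200_at) and lymphoma 2 (low on 1427860_at and 1451965_at). The median deviation from the wild-type mean was 0.42 in lymphoma 1, -0.15 in lymphoma 2, 0.35 in lymphoma 3, 0.059 in lymphoma 4 and 0.46 in lymphoma 5. Over all tested probe sets, which RMA brings to a common distribution, these medians lay between -0.042 and 0.0070. Single deviations ran from -2.41 to 2.58 over the 34 probe sets and 9 arrays.

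The kappa constant gene Igkc encodes the shared end of every kappa chain. The 3 probe sets with its symbol also carry variable and joining symbols, and no probe sequences were at hand. Whether they read kappa transcripts whatever the variable gene was therefore not tested. On 1427455_x_at the wild-type spleens read 14.40, 14.22, 14.22 and 14.24 and lymphomas 1 to 5 read 14.80, 14.67, 14.83, 14.25 and 14.94. Lymphomas 1, 2, 3 and 5 were above all wild-type spleens and lymphoma 4 was within their range. The difference was 0.43 ± 0.13 (SE), or 1.34-fold, with a limma adjusted p of 0.203, and without lymphoma 4 the difference of 0.54 passed (limma adjusted p 0.0417). The other 2 probe sets with Igkc, 1452417_x_at and 1427660_x_at, differed by 0.34 and 0.27 (limma adjusted p 0.270 and 0.307). All 3 sat between 13.50 and 14.94, while the highest values of the arrays were 15.32 to 15.42. Whether this high level limited the differences was not tested.

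The lambda locus carries the minor light chain of the mouse. Probe set 1424931_s_at, filed under the lambda constant gene Iglc1 and the variable gene Iglv1, read 11.22, 11.18, 11.27 and 11.19 in the wild-type spleens and 12.03, 10.79, 11.32, 10.83 and 12.17 in lymphomas 1 to 5. Lymphomas 1 and 5 were the high ones, lymphomas 2 and 4 lay below every wild-type spleen, and the wild-type SD was 0.04 against 0.65 among lymphomas. The difference was 0.21 ± 0.29 (SE; limma adjusted p 0.791). It was 0.029 without lymphoma 5, 0.063 without lymphoma 1, 0.37 without lymphoma 2 and 0.36 without lymphoma 4. Relative to their wild-type means, 1424931_s_at and the mean of the 3 probe sets with Igkc moved unequally within arrays. They stood at 0.82 and 0.46 in lymphoma 1, at -0.42 and 0.16 in lymphoma 2, and at 0.11 and 0.48 in lymphoma 3. In lymphoma 4 they stood at -0.39 and 0.065, and in lymphoma 5 at 0.95 and 0.55. The probe sets with Igkc sit nearer the upper end of the scale, so the sizes of these shifts may not compare. Nor did all the Iglv1 probe sets described next follow 1424931_s_at.

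The 3 probe sets filed under Iglv1 alone disagreed. One, 1430523_s_at, read 9.30, 9.15, 9.55 and 9.29 in wild-type spleens and 10.99, 7.77, 9.83, 8.29 and 10.28 in lymphomas 1 to 5, the largest lymphoma SD of all 34 (1.36). It ordered the lymphomas as the lambda constant probe set did, except that lymphomas 1 and 5 changed places. Lymphoma 1 stood 3.16-fold above the wild-type mean and lymphoma 2 lay 2.93-fold below it, yet the group difference was 0.11 ± 0.59 (SE; limma adjusted p 0.959), and it was -0.28 without lymphoma 1 and -0.10 without lymphoma 5. The brightest, 1447918_x_at, stayed between 11.99 and 12.30 on all arrays, and the difference was -0.077. On 1427292_at lymphoma 1 alone was low, at 7.51, against 8.47 to 8.80 in the other lymphomas and 8.37 to 8.66 in wild-type spleens.

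The largest differences came from a pair of probe sets on 1 target, filed under Igkv6-14, Igkv6-23 and Igkv8-19. On 1427577_x_at the wild-type spleens read 7.06, 6.71, 6.89 and 6.77 and lymphomas 1 to 5 read 7.56, 7.60, 8.55, 7.29 and 9.43. Every lymphoma was above every wild-type spleen, lymphoma 5 by the most, at 5.96-fold over the wild-type mean. The difference was 1.23 ± 0.39 (SE), with a limma adjusted p of 0.212, and it was 0.89 without lymphoma 5. Its partner 1427576_at read the same target with a difference of 1.17 (limma adjusted p 0.227), and there lymphoma 4 (7.37) lay just under wild-type spleen 1 (7.39).

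Another probe set with the same 3 symbols but another design sequence gave another picture. On 1451965_at the wild-type spleens themselves parted, with 8.28 and 8.20 in spleens 1 and 2 and 9.41 and 9.68 in spleens 3 and 4. Lymphomas 1 to 5 read 9.31, 7.04, 9.16, 8.28 and 9.36. Only lymphoma 2 lay outside the wild-type range, 3.60-fold below the wild-type mean, and the difference was -0.26 ± 0.52 (SE; limma adjusted p 0.868). With a wild-type SD of 0.76, this was the one immunoglobulin probe set whose wild-type SD exceeded 0.5. The difference turned positive, to 0.0029 without wild-type spleen 4 and 0.14 without lymphoma 2.

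Igkv6-14 also has a probe set to itself, 1427860_at. It read 8.28, 8.11, 8.03 and 8.06 in the wild-type spleens and 9.09, 6.29, 9.21, 8.25 and 9.24 in lymphomas 1 to 5. Lymphomas 1, 3 and 5 lay close together above the wild-type range, and lymphoma 2 stood 3.56-fold below the wild-type mean. The difference was 0.30 ± 0.55 (SE; limma adjusted p 0.855), 0.13, 0.096 and 0.089 without lymphoma 1, 3 or 5, and 0.83 without lymphoma 2. Igkv6-15, read by 1427859_at on the same target sequence, had a lymphoma SD of 0.26 and a difference of 0.10.

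Igkv6-20 was read highest in lymphoma 2. Probe set 1451962_at read 6.82, 6.36, 6.43 and 6.44 in wild-type spleens and 7.41, 8.60, 6.82, 6.43 and 8.55 in lymphomas 1 to 5. Lymphomas 2 and 5 stood together at the top, 4.26-fold over the wild-type mean in lymphoma 2, while lymphoma 4 was within the wild-type range and lymphoma 3 just above it. The difference was 1.05 ± 0.44 (SE; limma adjusted p 0.325), and 0.79 without lymphoma 2. It is the one probe set on which lymphoma 2 gave the highest of the 9 values.

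Igkv8-30 was the brightest probe set with a single kappa symbol. On 1452463_x_at the wild-type spleens read 13.63, 13.32, 13.52 and 13.42, and lymphomas 1 to 5 read 14.39, 13.84, 14.78, 13.60 and 14.84. All lymphomas except lymphoma 4 were above the wild-type range. The difference of 0.82 ± 0.25 (SE), or 1.76-fold, had the smallest unadjusted p of the 34 (0.00876, limma adjusted p 0.194). The symbol Igkv8-30 also stands among those of the 3 kappa constant probe sets, on which lymphomas 1, 3 and 5 were also the highest arrays.

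Lymphoma 3 was the top array on 2 of the 3 probe sets of the Igkv4 family named here. On 1426200_at, filed under Igkv4-55 and Igkv4-68, wild-type spleens read 6.29, 6.50, 6.50 and 6.57 and lymphomas 1 to 5 read 6.89, 6.18, 8.85, 6.53 and 7.66. Lymphoma 3 stood apart there, 1.19 above lymphoma 5 and 5.23-fold over the wild-type mean, and the difference was 0.76 ± 0.46 (SE; limma adjusted p 0.505), or 0.35 without lymphoma 3. Igkv4-72 (1426201_at) had the same order at the top, with 8.40 in lymphoma 3 and 7.75 in lymphoma 5 against 6.82 to 7.11 in wild-type spleens. On Igkv4-68 (1427857_x_at) lymphoma 5 led at 6.90, with 6.77 in lymphoma 1 and 6.59 in lymphoma 3 against 6.09 to 6.19 in wild-type spleens. That probe set shares its target with 1427855_at and 1427856_a_at, both filed under Igkv19-93, so which gene it reads is uncertain.

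Igkv15-103 and Igkv9-120 again set high lymphomas 1, 3 and 5 beside a low lymphoma 2. Igkv15-103 (1427837_at) read 6.52, 6.51, 6.03 and 5.94 in wild-type spleens and 6.99, 5.46, 7.83, 6.01 and 7.84 in lymphomas 1 to 5, a difference of 0.58 ± 0.48 (SE; limma adjusted p 0.638). That difference was 0.33 without lymphoma 3, 0.32 without lymphoma 5, 0.92 without lymphoma 2 and -0.096 without lymphomas 3 and 5. For Igkv9-120, 1460423_x_at read 8.87, 8.70, 8.48 and 8.03 in wild-type spleens and 9.86, 7.45, 9.77, 8.35 and 10.02 in lymphomas. Again lymphomas 1, 3 and 5 lay close together, and lymphoma 2 was under all wild-type spleens. Its difference was 0.57 ± 0.51 (SE; limma adjusted p 0.668), 0.34 without lymphoma 5 and 0.98 without lymphoma 2.

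Of the other probe sets for Igkv9-120, 1452536_s_at again had lymphomas 1, 3 and 5 above the wild-type range and lymphoma 2 below it. Lymphoma 1 led there at 8.45, followed by lymphoma 5 at 7.72 and lymphoma 3 at 7.24, against 6.88 to 7.01 in wild-type spleens, with lymphoma 2 lowest at 6.67 and lymphoma 4 just below the range at 6.86. Its difference was 0.45, or 0.18 without lymphoma 1. The dim 1427750_at stayed between 4.24 and 4.75 on all arrays. Igkv19-93 likewise had a bright and a dim reading: 1427855_at was at 9.24 in lymphoma 3 alone, against 8.18 to 8.46 in the other lymphomas and 8.10 to 8.25 in wild-type spleens. Its partner 1427856_a_at stayed between 3.50 and 3.73, and although every lymphoma lay above every wild-type spleen there, the difference was 0.11 (limma adjusted p 0.483).

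Of the 5 heavy chain variable probe sets 3 had a positive difference. The most negative difference of the 34 was that of 1455530_at, filed under Ighv14-2, which read 12.89, 12.99, 13.04 and 13.05 in wild-type spleens and 11.42, 10.58, 12.87, 13.19 and 12.65 in lymphomas 1 to 5. Lymphomas 1 and 2 were the low ones, lymphoma 2 by 5.33-fold against the wild-type mean, and lymphoma 4 lay above all wild-type spleens. The difference was -0.85 ± 0.48 (SE; limma adjusted p 0.467), with a 95% interval of -1.93 to 0.22 that includes 0. It was -0.46 without lymphoma 2, and the wild-type SD was 0.07. Lymphomas 1 and 2 also had the 2 lowest mature B-cell scores (-1.27 and -0.59, against -0.39 to -0.21 in the other lymphomas), the 2 lowest T-cell scores (-1.18 and -1.33) and the 2 highest erythroid scores, and the part of these in the low values was not tested. The 3 other probe sets with Ighv14-2, which also carry Ighg3 and Ighm, stayed between 4.12 and 5.32 and differed by 0.27, 0.18 and -0.0014. Their levels are far from that of 1455530_at, and the platform annotation may be out of date, so which gene 1455530_at reads is uncertain.

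The fifth heavy chain probe set, 1427851_x_at, is filed under Ighv1-72 and the IgM constant gene Ighm. It read 6.15, 5.91, 5.98 and 5.88 in wild-type spleens and 7.18, 5.70, 6.36, 5.44 and 7.69 in lymphomas 1 to 5. Lymphomas 1, 3 and 5 were above the wild-type range and lymphomas 2 and 4 below it, the same division as on the lambda constant probe set. The difference was 0.49 ± 0.42 (SE; limma adjusted p 0.645), 0.19 without lymphoma 5, 0.32 without lymphoma 1 and 0.75 without lymphoma 4.

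Among the remaining kappa variable probe sets, some were dim on every array. Igkv1-117 (1427748_at), Igkv1-135 (1427753_at) and Igk-V21 (1427858_at) lay between 3.53 and 4.29, and their differences were -0.079, 0.013 and 0.14. Igkv5-39 (1451948_at) lay between 6.34 and 6.86 with a difference of -0.038. Igkv14-111 (1451951_at) was low in lymphoma 2 (6.01) and above the wild-type range in lymphomas 1, 4 and 5 (6.96 to 7.04), with wild-type spleens between 6.58 and 6.74 and a lymphoma SD of 0.43. On 1427799_x_at, with 2 symbols, lymphoma 3 led at 4.46 against 3.69 to 3.86 in wild-type spleens.

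The places of the kappa variable genes on their locus are given as a description, with no test. These genes lie in a long row, and the number of RefSeq kappa variable genes between a gene and Igkc gives its place here among 102 such genes. The nearest with a probe set of its own, Igkv6-14, had 10 between, and the farthest, Igkv1-135, had 100. Lymphoma SDs of 0.99 to 1.26 occurred at 10 (Igkv6-14), 16 (Igkv6-20), 81 (Igkv15-103) and 88 (Igkv9-120), and SDs under 0.2 at 34 (Igkv5-39), 73 (Igkv19-93, on 1427856_a_at), 87 (Igkv1-117), 88 (Igkv9-120, on 1427750_at) and 100 (Igkv1-135). Of the latter, all but 1451948_at for Igkv5-39 are probe sets with mean levels under 5, where little can show. These places come from the RefSeq table of assembly GRCm38.p6, used for neighbours only.

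Other genes of antibody production were read from the probe set with the highest mean for each gene. Over all tested probe sets limma called 0.486%, so 0 calls in a short list is a share near the background. Limma called 0 of the 4 measured heavy chain constant and J chain genes, with 2 higher at an unadjusted p under 0.05 (5.15% of all). The IgA gene Igha stood at 13.58 ± 0.32 (SD, n = 4) and 14.63 ± 0.38 (SD, n = 5), a difference of 1.04 (limma adjusted p 0.0777), and the IgG3 gene Ighg3 differed by 0.94 with a lymphoma SD of 2.17. The list's score was 1.27, 1.63 and 1.20 in lymphomas 1, 3 and 5, and -0.060 and -0.22 in lymphomas 2 and 4, against -0.12 to 0.083 in wild-type spleens. The genes behind this score differed in pattern. Igha was above every wild-type spleen in all 5 lymphomas (14.20 to 15.14, against 13.21 to 13.93). Ighg3 was below every wild-type spleen in lymphomas 2 and 4 (9.03 and 9.38, against 10.25 to 10.71). The lymphomas high on most light chain probe sets were also the high ones on the heavy chain list's score.

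Plasma cell genes gave 0 calls of 16 by limma, with 3 higher at an unadjusted p under 0.05 (5.15% of all). Their median difference was 0.31. The chaperone gene Creld2 differed by 1.18 (limma adjusted p 0.151) and the J chain gene, whose product links antibody units, by 0.72 (0.353). The score was 0.28, 0.23, 0.58, -0.33 and 0.85 in lymphomas 1 to 5, against -0.039 to 0.088 in wild-type spleens, so lymphomas 5 and 3 led and lymphoma 4 was lowest. Whether the number of plasma cells bears on the light chain values was not tested.

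Mature B-cell genes had differences of the other sign. Limma called 0 of 15, 4 of them lower at an unadjusted p under 0.05 (8.76% of all). Positive differences numbered 0 of 15 (median -0.44). The IgE receptor gene Fcer2a differed by -1.77 (limma adjusted p 0.234) and the complement receptor gene Cr2 by -1.25 (0.124). All 5 lymphomas had scores between -1.27 and -0.21, below the wild-type range of -0.069 to 0.090.

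Genes that make or alter the joined genes were not called either. Among 10 genes of the surrogate light chain and of recombination limma called 0, with 1 lower at an unadjusted p under 0.05 (8.76% of all). Vpreb1, part of the stand-in light chain of B-cell precursors, and the recombinase gene Rag1 differed by 0.88 and 0.79. Both differences came from lymphoma 1, at 10.05 for Vpreb1 and 7.86 for Rag1, against at most 5.91 and 3.65 in the other lymphomas, and the list's score was 0.87 in lymphoma 1 against -0.25 to -0.12 in the others. Among 12 transcription factor genes of light chain loci limma called 0, with 3 lower at an unadjusted p under 0.05 (8.76% of all). The largest differences were those of the NF-kB subunit gene Rel (-0.54, limma adjusted p 0.178) and of the B-cell regulator gene Pax5 (-0.51, 0.268). Among 8 genes of mutation and repair at these loci limma called 0 (0 at an unadjusted p under 0.05 in either direction), with the nuclease gene Exo1 at 0.35 and the endonuclease gene Apex2 at 0.22.

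Scores of other cells lay outside the wild-type range in all 5 lymphomas for macrophages, and only in some for neutrophils, erythroid cells and T cells. The macrophage list had 8 of 15 genes called higher and 1 lower by limma, against 0.251% and 0.235% of all. C1qb (2.40), C1qc (2.34), C1qa (1.93) and Marco (-1.64) changed most, and scores were 0.69 to 1.29 in lymphomas against -0.14 to 0.074 in wild-type spleens. Of 13 neutrophil genes limma called 0, with 7 higher at an unadjusted p under 0.05 (5.15% of all), S100a9 at 3.41 and Lcn2 at 3.15. Their score was 5.33 in lymphoma 1 and 0.056 in lymphoma 4. Erythroid genes gave 0 calls of 10, with 1 higher at an unadjusted p under 0.05 (5.15% of all), Rhag at 2.36 and Hbb-b2 at 2.33. T-cell genes gave 0 of 13, with 3 lower at an unadjusted p under 0.05 (8.76% of all). Among these T-cell genes Cd8b1 differed by -1.69, and the mean of Cd8a was 10.23 in wild-type spleens and 9.23 in lymphomas. The part of these cells in the light chain values was not tested.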

How the data were processed

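The authors made the deposited log2 values with RMA, as the submitters' processing notes name it, with no version or settings stated there. RMA corrects background, normalizes between arrays and summarises probes, and compresses differences near background. Rank by rank, the 9 arrays' values lay within 0.191 of each other and were not normalized again. Depth in reads does not apply. Gene symbols came from the platform annotation, and 25 of 26 gene identifiers of the chosen probe sets were in the RefSeq table of GRCm38.p6, which changed 0 symbols.

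After 64 Affymetrix controls were set aside, limma 3.58.1 under R 4.3.3 tested 45037 probe sets with a two-sided moderated test, and p-values were adjusted over all of them by Benjamini-Hochberg. The groups share replicate numbers, but no label says that these pair samples, so no block was used in the main fit. Same-numbered deviations correlated between -0.19 and 0.15, and differently numbered ones were not compared. The script was tested on simulated data.

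The rule for naming takes called probe sets, the 8 highest and 8 lowest differences, the 10 largest lymphoma SDs, the 5 largest wild-type SDs, the 5 highest means, arrays apart by 2 and light chain constant probe sets. Others were named after their values were seen. In the other lists it takes up to 4 called genes, or else the 2 with the largest difference. The probe sets and lists were chosen with earlier results of these data known. List genes without a probe set of their own were not analysed here. Alternatives covered normalization, centring, filters, variance models, probe set types and left-out arrays.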

Additional observations from a re-analysis of the deposited data

Results flagged for a closer look

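A gap test for a single sample apart from its group marked 13 of 88 groups tested, 9 of them among the 68 groups of immunoglobulin probe sets; chance marks about 1 in 20. Among the lymphomas, lymphoma 1 was low on 1427292_at (Iglv1) at 7.51, with the others between 8.47 and 8.80, and lymphoma 3 was high on 1427855_at (Igkv19-93) at 9.24, with the others between 8.18 and 8.46. The recombination list's score was high in lymphoma 1, at 0.87, with the others between -0.25 and -0.12.

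Wild-type spleen 1 was high on 1427455_x_at (14.40, others 14.22 to 14.24), on Igkv14-111 (1451951_at; 6.74, others 6.58 to 6.60) and on Igkv6-20 (1451962_at; 6.82, others 6.36 to 6.44). It was low on 1427855_at (8.10, others 8.23 to 8.25), and it was high on the plasma cell score (0.088, others -0.039 to -0.023) and on the erythroid score (1.06, others -0.38 to -0.32). Wild-type spleen 3 was high on 1452538_at (4.92, others 4.44 to 4.52). Wild-type spleen 4 was low on 1427292_at (8.37, others 8.61 to 8.66), and it was high on Igkv1-117 (1427748_at; 4.05, others 3.72 to 3.75) and on the T-cell score (0.13, others -0.048 to -0.037).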

How the results depend on the processing

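Limma called 0 of the 34 probe sets under each alternative over all arrays, the replicate block included, and 0 to 1 with 1 array left out. The replicate block had 5 of 34 at an unadjusted p under 0.05 (11.6% of all). Leaving out lymphomas 1 and 2 or lymphomas 3 and 5 was chosen after seeing the data. The probe sets without overlap numbered 1 with medians subtracted, 0 of 19 among plain _at probe sets, 2 to 7 with 1 array left out and 6 without lymphomas 1 and 2. Leaving out arrays can only keep or raise this count. The shares of all probe sets without overlap were not computed in these settings. Nor were the shares of all probe sets with an array apart, given next, except at 1 or more over all arrays. These changes therefore say nothing particular to the immunoglobulin probe sets. Arrays stood apart by 1 or more on 3 of 34 probe sets (8.82%, against 1.89% of all tested), on 14 at a gap of 0.5, 0 at a gap of 2, 3 of 19 among plain _at probe sets, 1 of 21 with a single symbol, 3 to 6 with 1 array left out and 6 without lymphomas 3 and 5. The median difference stayed positive in all settings run on it, between 0.068 (without lymphomas 3 and 5) and 0.33 (without lymphoma 2). The count with the larger lymphoma SD over all 34 ran from 25 (without lymphomas 1 and 2) to 31. Of the 34 differences, 9 changed sign in some setting, and 1 passed in any (1427455_x_at, without lymphoma 4). With 1 array left out the ranges were -0.31 to 0.012 (1427292_at), -0.11 to 0.0012 (1427748_at), -0.037 to 0.053 (1427753_at), -0.28 to 0.53 (1430523_s_at), -0.099 to 0.030 (1451948_at), -0.49 to 0.14 (1451965_at) and -0.11 to 0.11 (1452538_at). Array weights gave 0.051 (1451948_at), 0.13 (1451965_at) and 0.16 (1452538_at), and the replicate block, in which lymphoma 5 has no partner and drops out of the difference, gave -0.10 (1430523_s_at). Without lymphomas 1 and 2 the values were 0.023 (1427292_at), 0.068 (1451948_at), 0.044 (1451965_at) and 0.28 (1452538_at). Without lymphomas 3 and 5 they were -0.017 (1427753_at), -0.096 (1427837_at), -0.24 (1427860_at) and -0.31 (1430523_s_at). The cause was not tested. With 4 and 5 arrays a group, and 8 probe sets at a mean level under 5, small differences cannot be resolved.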
